A study of Mus musculus with 12 samples.

Results

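The mature miRNAs mmu-miR-103-3p and mmu-miR-107-3p are cut from hairpins that lie in introns of the pantothenate kinase genes Pank1, Pank2 and Pank3. They were chosen by name from a table of tag counts, in which they fill 3 lines, because mmu-miR-103-3p is listed under both of its precursors with the same counts. With that line kept once they were 2 of 1060 miRNAs, and both passed the filter on low counts that left 431 miRNAs for testing. Small RNA was sequenced from the amygdala of 12 male C57BL/6J mice of 10 weeks, wild-type animals of 1 strain with 3 mice in each of 4 groups. Control mice (C) received no foot shock. Mice of the fear memory formation group (F) heard tones that ended with foot shocks (cued fear conditioning). Mice of the fear memory extinction group (E) were conditioned and, on the next day, heard the tones repeatedly without shock. Mice of the retrieval-extinction group (RE) were conditioned and had a retrieval trial with a single reminder tone. They then waited in the home cage before the same extinction training. The tissue was the dissected basolateral part of the amygdala (BLA), taken shortly after the last training. Control tissue was taken at the time of the F group, so that extinction training and the longer time since conditioning cannot be told apart in the E and RE groups. The sample labels give amygdala as the tissue, whereas the submitters' design note calls the profiles retinal, which was not resolved.

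Pantothenate kinases catalyse the first committed step of coenzyme A synthesis, and the miRNAs carried in their introns are transcribed together with them in vertebrates. A miRNA hairpin is cut by Drosha and Dicer, one strand is loaded into an Argonaute protein, and its seed near the 5′ end pairs with target mRNAs and lowers their translation or stability. The 3p strand is the loaded one for these hairpins. Known targets include the mRNA of Dicer itself (in human cancer cells), caveolin-1 (in mouse liver and fat, where these miRNAs dampen insulin signalling) and the β-secretase BACE1 (for miR-107, in human cells). Both miRNAs are well expressed in brain, and miR-103 is often used as a reference in PCR measurements of other miRNAs.

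The mature sequences are shown because the members are nearly the same molecule, which bears on every count below. Capitals mark the seed, bases 2 to 8 from the 5′ end, and the sequences come from RefSeq (GRCm38.p6).
mmu-miR-103-3p: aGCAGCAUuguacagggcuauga
mmu-miR-107-3p: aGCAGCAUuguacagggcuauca
Both are 23 bases long and differ by a single substitution, G22C, counted from the 5′ end with the base of mmu-miR-103-3p first. The seed GCAGCAU occurs in no other of the 1060 miRNAs. A read that ends before base 22 is the same for both, and the sources used here do not give how the authors assigned such reads. Of the 307 miRNAs predicted by the authors, 0 lie in or contain a member's sequence.

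The hairpins show where the members come from and what they share outside the mature strand. Capitals mark the 3p strand, bases 52 to 74 of each hairpin.
Mir103-1: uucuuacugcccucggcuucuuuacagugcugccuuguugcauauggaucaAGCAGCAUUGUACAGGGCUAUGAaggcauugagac
Mir103-2: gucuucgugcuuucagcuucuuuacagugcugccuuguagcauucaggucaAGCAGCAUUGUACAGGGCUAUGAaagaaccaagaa
Mir107: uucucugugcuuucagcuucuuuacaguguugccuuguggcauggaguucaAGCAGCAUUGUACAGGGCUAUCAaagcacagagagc
Mir103-1 lies on the plus strand of chromosome 11 at 35782396 to 35782481, within Pank3. Mir103-2 lies on the plus strand of chromosome 2 at 131288052 to 131288137, within Pank2. Mir107 lies on the minus strand of chromosome 19 at 34820687 to 34820773, within Pank1. Each hairpin has the orientation of its host and lies in intron 5 of the 6 introns of the host's principal transcript (GENCODE M21, on the same build). The distance from the upstream exon was 688 bases for Mir103-1, 454 bases for Mir103-2 and 326 bases for Mir107, in introns of 1740, 5801 and 7282 bases. Position in the host is therefore shared by the 3 genes while intron length is not. Aligned over their whole length, Mir103-1 and Mir103-2 matched at 69 of 86 bases (80.2%), Mir103-1 and Mir107 at 70 of 87 (80.5%), and Mir103-2 and Mir107 at 73 of 87 (83.9%). The hairpins that give the same mature mmu-miR-103-3p were thus no more alike than either was to Mir107. The mature count pools both mmu-miR-103-3p loci, so the output of Pank2 and Pank3 cannot be told apart, and the host mRNAs were not analysed here.

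The listed counts summed to 1093194 to 2353896 per library. They were 22.2% to 25.2% of the larger totals implied by the authors' normalized values. Before the members are described, 4 libraries have to be set apart. They are replicate 2 of the C and E groups, replicate 1 of F and replicate 4 of RE. They were led by mmu-let-7g-5p where mmu-miR-148a-3p led the remaining 8, and are called let-7g-rich below after that leading miRNA only. After library scaling, mmu-let-7g-5p differed by just 0.25 on the log2 scale between them and the other 8. mmu-miR-148a-3p differed by −2.90, against a median size of 0.61 over all miRNAs. This split cuts across the groups, and the first principal component, with 63.8% of the variance, followed it. Replicates of a group differed by far more than sampling noise (chi-square of 34.4 to 1005 for each degree of freedom). Neuron-enriched miRNAs, 5 of 5 detected, summed to 71860 to 92214 counts per 1e+06 listed counts (CPM) and 0 of the markers of any other cell type list was at 0. Oligodendrocyte markers were at 2037 to 2629 CPM in the F group, below every library of C (3042 to 3632), E (3651 to 4081) and RE (2981 to 4771). Nearly all of this sum was mmu-miR-219a-2-3p, with a mean of 3283 scaled CPM, against 5.25 for mmu-miR-219a-5p and 5.32 for mmu-miR-338-3p. Groups did not overlap for 4.41% (F against C), 7.19% (E against F) and 5.57% (RE against F) of all miRNAs tested. Those shares count single miRNAs in scaled CPM, whereas the marker sums are not scaled, so the measures differ. Mural markers were at 10938 to 27716 CPM in the E group, above every library of F (4503 to 8421) and RE (4665 to 7750). The C libraries (3928 to 13653) overlapped those of E. Of all miRNAs tested 7.19% (E against F) and 7.66% (RE against E) did not overlap, again in scaled CPM. The other lists were endothelial at 5531 to 11614, erythrocyte at 276 to 1097, leukocyte and microglial at 423 to 1084 and choroid plexus at 668 to 2754. The part of these cells in the members' levels was not tested, and in bulk tissue fewer cells of a type and less RNA per cell cannot be told apart.

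mmu-miR-103-3p was an abundant miRNA in every library and lay within a narrow band. It took 3571 to 7875 counts per library, which was 0.327% to 0.400% of the listed counts and rank 34 to 42. As CPM scaled by TMM (a library scaling of edgeR that lets most miRNAs be level on average), the C libraries were at 3755, 3036 and 4062, with a mean of 3618 ± 527 (SD, n = 3). The F libraries were at 3116, 3989 and 3776, with a mean of 3627 ± 455 (SD, n = 3). The E libraries were at 3950, 3288 and 3630, with a mean of 3622 ± 331 (SD, n = 3). The RE libraries, numbered 3 to 5, were at 3453, 3633 and 4247, with a mean of 3778 ± 416 (SD, n = 3). The order of the means was C, E, F and RE, and no neighbours in it differed beyond their spread. In TMM-scaled CPM the lowest library of the C, F and E groups was in each case the let-7g-rich one, and the highest of all was RE replicate 5. The highest library was 1.40-fold above the lowest. This order depends on the scaling. As a share of the listed counts C replicate 2 (0.374%) was above C replicate 1 (0.361%), and E replicate 2 (0.369%) was above E replicate 3 (0.361%). In F the let-7g-rich replicate 1 was still the lowest (0.330%).

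mmu-miR-107-3p was present at a lower level with a wider spread. It took 669 to 1306 counts per library, which was 0.0466% to 0.0831% of the listed counts and rank 84 to 116. The C libraries were at 663, 515 and 855 CPM, with a mean of 678 ± 170 (SD, n = 3). The F libraries were at 541, 796 and 622 CPM, with a mean of 653 ± 130 (SD, n = 3). The E libraries were at 610, 582 and 732 CPM, with a mean of 641 ± 79.8 (SD, n = 3). The RE libraries were at 647, 528 and 494 CPM, with a mean of 556 ± 80.2 (SD, n = 3). The order of the means was RE, E, F and C, again with no neighbours apart beyond their spread. RE replicate 5 was the lowest library for mmu-miR-107-3p and the highest for mmu-miR-103-3p. The highest, C replicate 3, was 1.73-fold above the lowest.

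**Figure D1:**
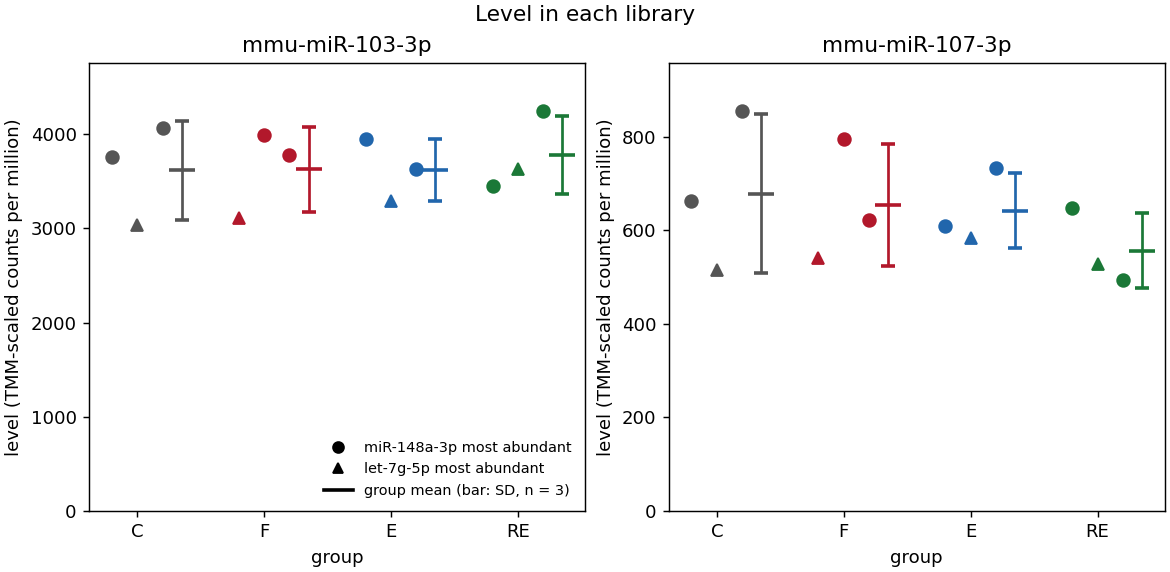
Level of mmu-miR-103-3p and mmu-miR-107-3p in each of the 12 libraries in TMM-scaled CPM, with the mean and SD of each group of 3; the let-7g-rich library of each group has its own symbol. The groups overlap for both miRNAs, with mmu-miR-103-3p at 3036 to 4247 and mmu-miR-107-3p at 494 to 855.

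The 4 groups were compared to ask whether either miRNA changed with fear memory formation, extinction or retrieval-extinction, and neither passed the test in any comparison. Over the 4 groups together, edgeR's quasi-likelihood test gave an unadjusted p of 0.984 for mmu-miR-103-3p and 0.663 for mmu-miR-107-3p (adjusted p = 1.00 for both). Across all 431 miRNAs, 12 had an unadjusted p below 0.05 in that joint test and 0 an adjusted one.

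In the F group against the C group mmu-miR-103-3p differed by 0.0037 on the log2 scale (SE 0.19, 95% interval −0.42 to 0.43, edgeR adjusted p = 1.00). mmu-miR-107-3p differed by −0.05 (SE 0.24, interval −0.58 to 0.47). Fear conditioning thus left both within the replicate spread. In this comparison 0 of the 2 members were called by edgeR at an adjusted p below 0.05, against 0% of all miRNAs tested. At an unadjusted p below 0.05 it was 0 of 2 against 1.86%, and by DESeq2 at an adjusted p below 0.05 it was 0 of 2 against 0.233%.

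In the E group against the C group the differences were 0.0019 for mmu-miR-103-3p and −0.08 for mmu-miR-107-3p (interval −0.60 to 0.44). For mmu-miR-103-3p this was, with TMM, the smallest change of the 431 miRNAs tested. Again 0 of the 2 members were called, against 0% of all miRNAs by edgeR's or DESeq2's adjusted p and 1.62% by edgeR's unadjusted p. The E group against the F group gave −0.0018 for mmu-miR-103-3p, also the smallest of the 431 with TMM, and −0.03 for mmu-miR-107-3p. Ranks were taken with TMM only. In E against F mmu-miR-103-3p was at 0.092 with library totals, and with TMM it stood at 0.08 measured from the median of all miRNAs. There too 0 of the 2 were called, against 0% by either adjusted p and 3.71% by the unadjusted p.

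The comparisons of the RE group held the larger of the members' differences, those of mmu-miR-107-3p. They were near the middle of all miRNAs in size. Of the 431 tested, 237 changed less in RE against C, 225 in RE against E and 242 in RE against F. In the RE group against the C group mmu-miR-107-3p was at −0.29 on the log2 scale (SE 0.24, interval −0.81 to 0.24, edgeR unadjusted p = 0.255, adjusted p = 0.998). As a fold this interval spans 0.571 to 1.18. In the 8 libraries that are not let-7g-rich, 2 per group, the difference was −0.45 (edgeR unadjusted p = 0.0448, adjusted p = 0.301), and on the authors' normalized values limma gave −0.48 (unadjusted p = 0.0466, adjusted p = 0.994). Leaving out 1 library moved it both ways, to −0.13 without C replicate 3 (edgeR adjusted p = 0.998), to −0.49 without C replicate 2 (adjusted p = 0.966) and to −0.45 without RE replicate 3 (adjusted p = 0.999). mmu-miR-103-3p was at 0.06 (interval −0.36 to 0.48, adjusted p = 0.998), and at −0.050 in those 8 libraries. By edgeR's adjusted p 0 of the 2 were called, against 0% of all miRNAs, by its unadjusted p 0 of 2 against 5.57%, and by DESeq2's adjusted p 0 of 2 against 0.698%. The E group lacked the retrieval trial of RE, with its reminder tone, and the wait in the home cage after it. Against the E group mmu-miR-107-3p was at −0.21 (interval −0.73 to 0.32) and mmu-miR-103-3p at 0.06. There 0 of the 2 were called against 0% (edgeR, adjusted), 2.32% (edgeR, unadjusted) and 0.233% (DESeq2, adjusted). Against the F group mmu-miR-107-3p was at −0.23 (interval −0.75 to 0.29) and mmu-miR-103-3p at 0.06, with 0 of the 2 called against 0%, 2.09% and 0% in the same order. These comparisons share libraries and are not independent of each other.

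For both members the 3 libraries of one group overlapped those of the other in all 6 comparisons. Of all miRNAs tested the groups did not overlap for 4.41% (F against C), 4.18% (E against C), 7.66% (RE against C), 7.66% (RE against E), 7.19% (E against F) and 5.57% (RE against F). The intervals leave room for a change of mmu-miR-103-3p of about 0.745- to 1.40-fold. With a term for the let-7g-rich libraries, chosen after seeing the data, the intervals were narrower, for example −0.24 to 0.25 for mmu-miR-103-3p in F against C and −0.61 to 0.08 for mmu-miR-107-3p in RE against C (difference −0.27, edgeR adjusted p = 0.414), and all 12 still included 0. The signs of the differences near 0 carry no direction. With library totals in place of TMM, which moves the median of all 431 miRNAs by up to −0.16 (RE against C), mmu-miR-103-3p turned to −0.08 in RE against C. Measured from the median of all miRNAs, mmu-miR-107-3p in RE against C stood at −0.34 with TMM, −0.34 with DESeq2's size factors and −0.32 with library totals.

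**Figure D2:**
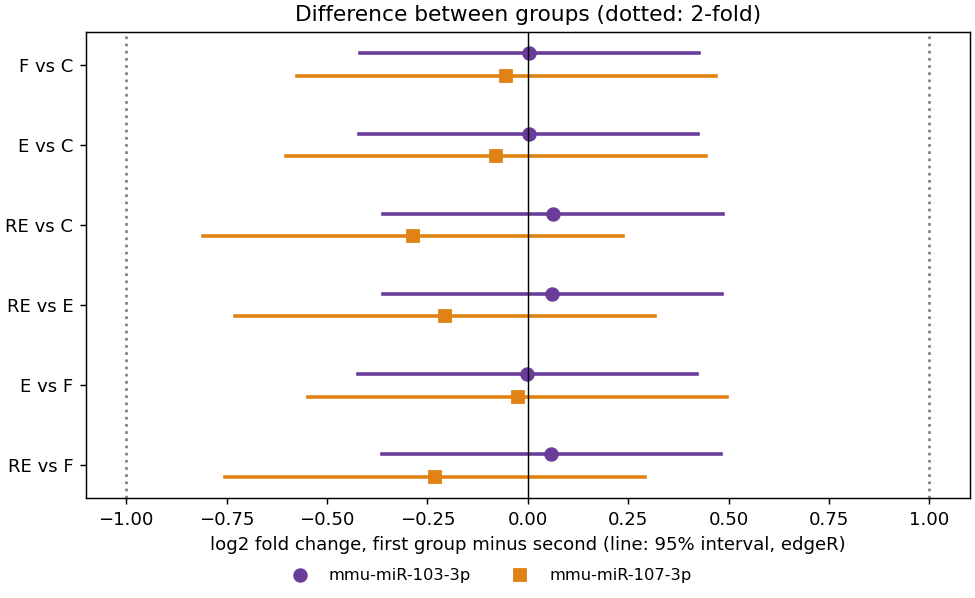
Difference between groups on the log2 scale for each member in the 6 comparisons, with the 95% interval of edgeR's quasi-likelihood fit; dotted lines mark a 2-fold change. Every interval includes 0 and lies within 2-fold, and the points farthest from 0 are those of mmu-miR-107-3p in the RE comparisons (−0.29, −0.21 and −0.23).

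The ratio of the members does not depend on the scaling of the libraries, since both counts come from the same library. The mmu-miR-103-3p count was 5.66, 5.89 and 4.75 times that of mmu-miR-107-3p in the C libraries, with a mean of 5.44 ± 0.603 (SD, n = 3). In the F libraries the ratio was 5.76, 5.01 and 6.07, with a mean of 5.61 ± 0.543 (SD, n = 3). In the E libraries it was 6.48, 5.65 and 4.96, with a mean of 5.69 ± 0.762 (SD, n = 3). In the RE libraries it was 5.34, 6.88 and 8.60, with a mean of 6.94 ± 1.63 (SD, n = 3). The C, F and E libraries thus shared a band of 4.75 to 6.48, and of the RE libraries replicate 3 lay inside it and replicates 4 and 5 above it. The 95% counting intervals (exact binomial) of the RE ratios, 4.91 to 5.81, 6.35 to 7.47 and 8.02 to 9.22, do not overlap. They cover counting error only, since PCR copies are not independent molecules, and leave out the spread between mice. As a share of both counts mmu-miR-107-3p ran from 10.4% in RE replicate 5 to 17.4% in C replicate 3.

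Over the 4 groups the log2 ratio did not differ beyond the spread (exact permutation test of the between-group sum of squares over 369600 assignments, p = 0.325). Leaving out 1 library gave exact p-values from 0.0528, without RE replicate 3, to 0.795, without RE replicate 5. In pairs of groups the largest difference was RE against C at 0.33 on the log2 scale (SE 0.22), with an exact permutation p of 0.3, adjusted over the 6 pairs to 0.6. RE against E differed by 0.27 and RE against F by 0.28, each at an exact p of 0.3, and the 3 pairs without RE had exact p-values of 0.6 to 1.00. The smallest p that 3 libraries against 3 allow is 0.1, so no pair could pass. In the 4 let-7g-rich libraries the mean ratio was 6.05 ± 0.567 (SD, n = 4) and in the other 8 it was 5.86 ± 1.25 (SD, n = 8). Within those 8 the exact test over the groups gave p = 0.648.

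**Figure D3:**
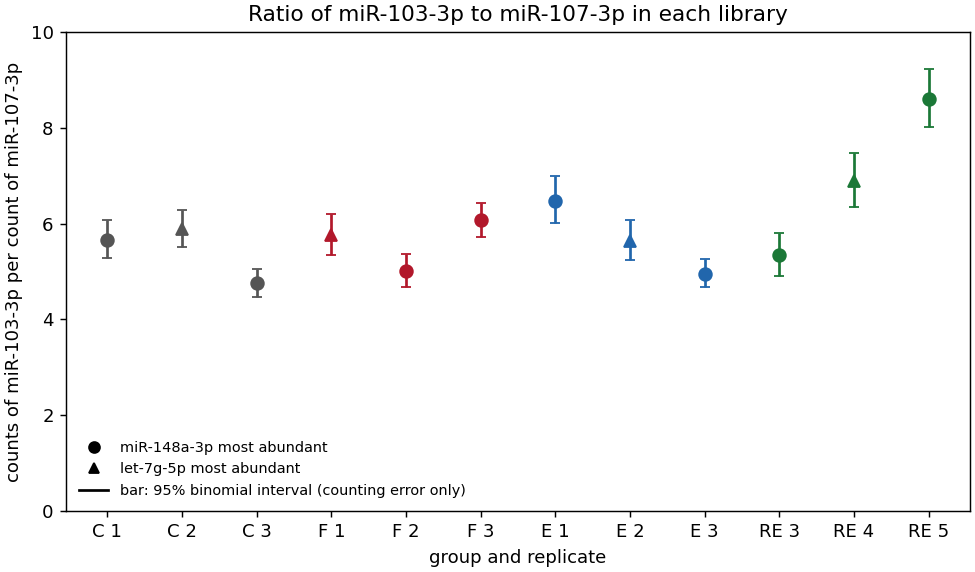
Ratio of the mmu-miR-103-3p count to the mmu-miR-107-3p count in each library, by group, with 95% exact binomial intervals for counting error. The C, F and E libraries lie between 4.75 and 6.48, and RE replicates 4 and 5 lie above them at 6.88 and 8.60.

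Steadiness over libraries is what a reference miRNA is chosen for, and the members differed in it. The log2 CPM of mmu-miR-103-3p had an SD of 0.153 over the 12 libraries, the 9th lowest of the 431 miRNAs tested, against a median of 0.476. That of mmu-miR-107-3p had an SD of 0.251, the 62nd lowest. Among the 105 miRNAs at least as abundant as mmu-miR-107-3p, mmu-miR-103-3p was the 7th steadiest and mmu-miR-107-3p the 28th, against a median of 0.407. Steadier than mmu-miR-103-3p in that set were mmu-miR-181d-5p (SD 0.0835), mmu-miR-127-3p, mmu-miR-9-5p (a neuron-enriched miRNA, SD 0.142), mmu-miR-30b-5p, mmu-miR-26b-5p and mmu-miR-409-3p. The SD of mmu-miR-103-3p was 0.164 with DESeq2's size factors and 0.109 with library totals.

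Part of this spread moved with the split of the libraries, whose part in the members' levels was not tested. mmu-miR-103-3p averaged 3268 ± 265 CPM (SD, n = 4) in the let-7g-rich libraries and 3858 ± 254 CPM (SD, n = 8) in the others. mmu-miR-107-3p averaged 542 ± 29.1 CPM (SD, n = 4) and 677 ± 114 CPM (SD, n = 8). Between the sets mmu-miR-103-3p differed by −0.24 and mmu-miR-107-3p by −0.31 on the log2 scale, given with no test because the sets were found in these data, against a median size of 0.61 over all miRNAs. On the authors' normalized values the sets lay closer together, at 864 ± 61.2 (SD, n = 4) and 868 ± 84.4 (SD, n = 8) for mmu-miR-103-3p and at 144.0 ± 19.0 (SD, n = 4) and 152.5 ± 28.9 (SD, n = 8) for mmu-miR-107-3p. Within the 8 other libraries the SD of log2 CPM was 0.0956 for mmu-miR-103-3p (12th lowest) and 0.247 for mmu-miR-107-3p (196th lowest), against a median of 0.264. There mmu-miR-103-3p was still among the steadiest, whereas mmu-miR-107-3p was near the middle of all miRNAs. Within the 4 let-7g-rich libraries the order of the members turned, with an SD of 0.115 for mmu-miR-103-3p and 0.0761 for mmu-miR-107-3p.

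**Figure D4:**
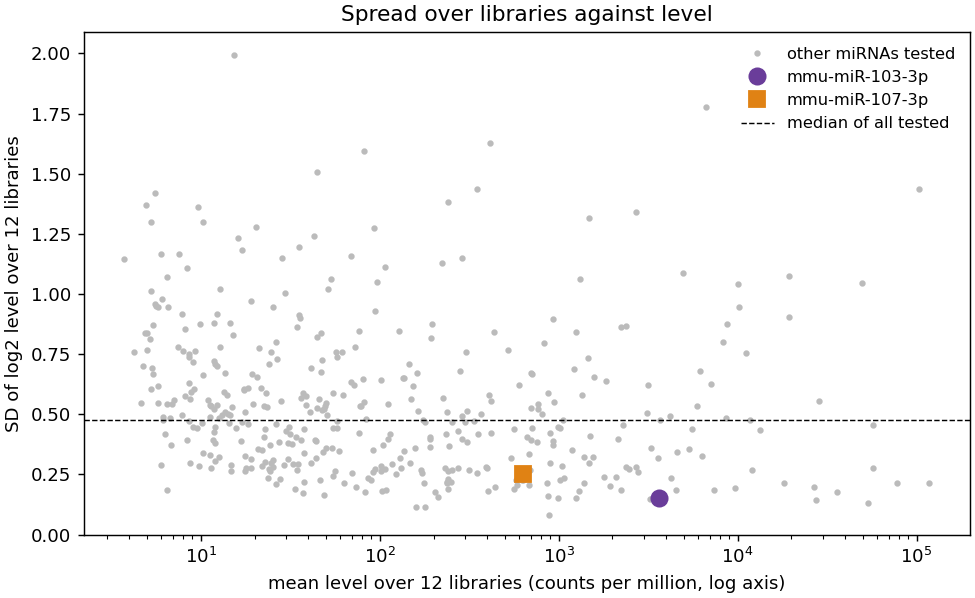
SD of log2 CPM over the 12 libraries (vertical axis) against the mean level in CPM (horizontal log axis) for the 431 miRNAs tested, with the members marked. mmu-miR-103-3p lies at the lower edge with an SD of 0.153, and mmu-miR-107-3p lies above it at 0.251, below the median of 0.476.

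The miRNAs with the steadiest ratio to each member were ranked by the SD of the log2 ratio over the 12 libraries, as a description. For mmu-miR-103-3p these were mmu-miR-20a-5p (0.118), mmu-miR-9-5p (0.119), a predicted miRNA of chromosome 13 that lies within mmu-miR-9-5p and can share its reads (0.128), mmu-miR-3068-3p (0.138) and mmu-miR-148b-3p (0.151), against a median of 0.503. For mmu-miR-107-3p they were mmu-miR-100-5p (0.152), mmu-miR-532-5p (0.174), mmu-miR-154-3p, mmu-miR-181c-3p (0.212) and mmu-miR-3068-3p (0.213), against a median of 0.552. Only mmu-miR-3068-3p was on both lists. The members' own log2 ratio had an SD of 0.235, which made mmu-miR-107-3p the 37th most alike to mmu-miR-103-3p of 430 and mmu-miR-103-3p the 11th most alike to mmu-miR-107-3p. By this measure the members, despite 22 shared bases, were thus not each other's closest match. The SD of a ratio is also small between miRNAs that are each steady, so it does not show that they rise and fall together.

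Other miRNAs carry AGCAGC near the 5′ end and so overlap the members' targeting. They are the miR-15/16 miRNAs, known for restraining the cell cycle, and 2 of them are shown because the shared letters sit 1 base further in; capitals again mark bases 2 to 8.
mmu-miR-16-5p: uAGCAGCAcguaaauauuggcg
mmu-miR-195a-5p: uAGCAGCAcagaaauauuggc
In all, 9 of the 1060 miRNAs hold AGCAGC from base 1 or 2, the 2 members from base 1 and the 7 miR-15/16 miRNAs from base 2. Of these 7, 5 passed the filter, while mmu-miR-15a-5p and mmu-miR-503-5p had at most 9 and 12 counts in a library. mmu-miR-16-5p averaged 226 CPM (range 109 to 325) and mmu-miR-195a-5p 112 CPM (57.5 to 168). mmu-miR-322-5p, mmu-miR-15b-5p and mmu-miR-497a-5p averaged 27.5, 25.4 and 22.1 CPM. The members held 88.2% to 93.6% of the summed counts of all 9 (median 90.9%), so that in this tissue most AGCAGC-bearing counts were theirs. The share moved with the split of the libraries, since mmu-miR-16-5p averaged 129 CPM in the let-7g-rich libraries and 275 CPM in the others.

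**Figure D5:**
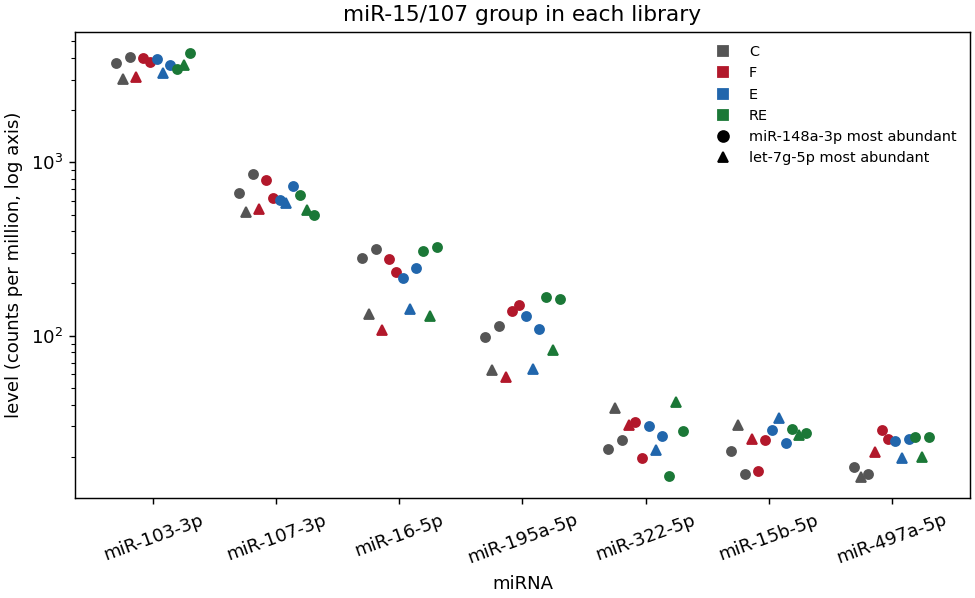
Level in each library, in CPM on a log axis, of the members and of the 5 miR-15/16 miRNAs that passed the filter, coloured by group. Both members lie above all the others, with mmu-miR-16-5p next at 109 to 325 CPM.

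Of the 5 miR-15/16 miRNAs tested, 0 passed an adjusted p of 0.05 in any of the 6 comparisons by edgeR. Against the C group 2 were higher and 3 lower in F (median −0.03 on the log2 scale, against 0.05 over all miRNAs), 3 higher and 2 lower in E (0.15 against 0.01), and 4 higher and 1 lower in RE (0.28 against 0.06). Only mmu-miR-497a-5p, at 23 to 53 counts per library, had an unadjusted p below 0.05, in all 3 of these comparisons. This is 1 of 5, against 1.86% of all miRNAs tested in F, 1.62% in E and 5.57% in RE. By edgeR's quasi-likelihood test mmu-miR-497a-5p was at 0.63 on the log2 scale in F (unadjusted p = 0.0199, adjusted p = 1.00), at 0.52 in E (unadjusted p = 0.0460, adjusted p = 0.997) and at 0.57 in RE (unadjusted p = 0.0332, adjusted p = 0.743). The same control libraries stand behind all 3 values. In RE against E the counts were 4 higher and 1 lower (median 0.13, against 0.05 over all miRNAs), in E against F 1 higher and 4 lower (−0.06 against −0.08), and in RE against F 4 higher and 1 lower (0.25 against 0.0011).

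The 5p strands of Mir103-2 and Mir107 were listed at very few counts, and that of Mir103-1, mmu-miR-103-1-5p, was not among the listed miRNAs. The former are shown because they, too, differ by a single base, with bases 2 to 8 in capitals.
mmu-miR-103-2-5p: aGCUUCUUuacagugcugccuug
mmu-miR-107-5p: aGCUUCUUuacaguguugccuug
They differ by C16U, with the base of mmu-miR-103-2-5p first. mmu-miR-103-2-5p had 4 counts in all, 2 each in C replicate 2 and E replicate 3, against 67773 for mmu-miR-103-3p. This is 0.00590% of the counts of both (exact binomial 95% interval 0.00161% to 0.0151%), which is not the share of 1 hairpin, since the 3p count pools Mir103-1 and Mir103-2 while the 5p count is that of Mir103-2 alone. mmu-miR-107-5p had 2 counts, both in RE replicate 5, against 11609 for mmu-miR-107-3p, or 0.0172% (0.00209% to 0.0622%). Neither strand passed the filter. The sheet holds 0 counts of 1, so a strand at 0 may have been below the lowest value listed.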

How the data were processed

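Sequenced reads were trimmed with Cutadapt, additional miRNAs were predicted with miRDeep2, and each library was aligned to mouse precursor miRNAs with Novoalign. For every mature miRNA the authors deposited a tag count per library and a normalized score, which is that count per 1e+06 tags of a library total, rounded. The submitters' notes name CASAVA 1.8 and hg38, which is human, and no miRNA reference version. Of 1169 lines, 109 repeated another and were dropped.

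edgeR 4.0.16, run in R 4.3.3, was used for the tests (TMM, filterByExpr with a minimum count of 10, quasi-likelihood test, all 12 libraries in 1 fit), with Benjamini-Hochberg adjustment over 431 miRNAs. Library CPM are TMM-scaled. The log2 ratio was tested with an exact permutation test (scipy 1.17.1). Alternatives were DESeq2 1.42.0, its size factors, library totals, other filters, 2 groups alone, limma 3.58.1 on log2 of the normalized values (pseudocount 1 or 0.5, which understates changes of low values), a replicate block and each library left out. A term for the 4 let-7g-rich libraries, the other 8 alone, and the summed counts were chosen after seeing the data. Steps were tested on simulated data.

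The members, lists and alternatives were chosen with earlier results of these data known. Named besides the members were their 5p strands, the AGCAGC miRNAs, the 5 most alike to each member and the most abundant of each library. The sources give 3 mice per group and do not say how they were housed or batched, so p-values measure the spread between these libraries.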

Additional observations from a re-analysis of the deposited data

How the results depend on the processing

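Neither member passed an adjusted p of 0.05 under any alternative that was run (smallest 0.816 for mmu-miR-103-3p and 0.301 for mmu-miR-107-3p, over 141 values each). At an unadjusted p below 0.05 stood 0 values of mmu-miR-103-3p and 4 of mmu-miR-107-3p. For RE against C these were limma with a pseudocount of 1 (log2 difference −0.48, unadjusted p = 0.0466, adjusted p = 0.994), limma without a filter (unadjusted p = 0.0127, adjusted p = 0.959) and edgeR in the 8 libraries that are not let-7g-rich (−0.45, unadjusted p = 0.0448, adjusted p = 0.301), and for RE against E limma without a filter (−0.39, unadjusted p = 0.0308, adjusted p = 1.00). The sign turned in 77 of the values of mmu-miR-103-3p and 15 of those of mmu-miR-107-3p, as differences near 0 do; the cause was not tested.

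The turned values of mmu-miR-103-3p in F against C were −0.035 with DESeq2's size factors, −0.095 with library totals, −0.0099 without a filter, −0.052 with a mean count of 50, −0.022 with the 2 groups alone, −0.035 by DESeq2, −0.13 by limma (pseudocount 1, 0.5 or no filter) and −0.036 in the 8 other libraries. In E against C they were −0.027 with size factors, −0.026 by DESeq2, −0.0031 with library totals, −0.016 with the 2 groups alone, −0.022 by limma in its 3 forms and −0.070 in the 8 other libraries. In RE against C they were −0.081 with library totals, −0.15 by limma in its 3 forms and −0.050 in the 8 other libraries, and in RE against E −0.078 with library totals and −0.13 by limma in its 3 forms. In E against F they were 0.0084 with size factors and by DESeq2, 0.092 with library totals, 0.043 without a filter, 0.055 with a mean count of 50, 0.040 with the 2 groups alone, 0.11 by limma in its 3 forms and 0.0022 with the library-set term. In RE against F they were −0.016 by limma in its 3 forms and −0.014 in the 8 other libraries. For mmu-miR-107-3p only E against F turned outside the left-out libraries, at 0.064 with library totals, 0.018 without a filter, 0.030 with a mean count of 50, 0.015 with the 2 groups alone and 0.095 by limma in its 3 forms. The 2 members summed into 1 feature differed by −0.01 to 0.02 in the 6 comparisons.

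With 1 library left out, mmu-miR-103-3p ranged from −0.13 to 0.070 in F against C, −0.084 to 0.066 in E against C, −0.10 to 0.11 in RE against C, −0.096 to 0.086 in RE against E, −0.12 to 0.086 in E against F and −0.075 to 0.13 in RE against F. mmu-miR-107-3p ranged from −0.27 to 0.10 in F against C, −0.22 to 0.095 in E against C, −0.49 (without C replicate 2) to −0.13 (without C replicate 3) in RE against C, −0.39 to −0.17 in RE against E, −0.17 to 0.14 in E against F and −0.38 to −0.072 in RE against F. The exact p of the ratio ranged from 0.0528 to 0.795, and with the authors' normalized values it was 0.327.

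The C, F and E groups share replicate numbers. Same-numbered libraries correlated between −0.72 and 0.74, and 2 of 9 libraries correlated best with their own number. The split of the libraries was not removed from these correlations. The highest was between the let-7g-rich replicates 2 of C and E, and the lowest between C replicate 1 and the let-7g-rich F replicate 1. Whether the numbers pair the libraries therefore cannot be decided from them. A replicate block in these 9 libraries, with 419 miRNAs tested, called 0 in each comparison, as did the fit without it. It gave mmu-miR-103-3p −0.0030 in F against C, 0.0084 in E against C and 0.011 in E against F, and mmu-miR-107-3p −0.05, −0.07 and −0.02. RE shares 1 number with them and has no blocked value.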
